A study of Mus musculus with 8 samples.

Results

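The loss of Ebi3 from B cells was examined in tumor-bearing mice, by comparing naive B cells from the spleens of C57BL/6 mice of genotype B-EBi3- (called EBi3KO here) with those of WT mice, both with a pancreatic tumor. The comparison was set by genotype and tumor status in the labels and used 4 of the 8 libraries of the study, 2 of EBi3KO tumor and 2 of WT tumor. The other 4 libraries, 2 of EBi3KO and 2 of WT whose tumor status is labelled WT, were read as mice without a tumor and served as the same genotype comparison without one. The labels used here name no allele or driver of the deletion, no age and no sex, and nothing in them tells if a group's 2 libraries are from different animals. The p-values therefore rest on library-to-library spread alone, which may be technical. The titles of the EBi3KO tumor libraries begin with OT and those of the WT tumor libraries with IV. RNA sequencing gave 26846836 to 28297319 reads on genes in the 4 tumor libraries and 21291892 to 26065124 in the others.

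Ebi3 is a soluble, receptor-like chain that pairs with partner chains. With Il12a it forms the inhibitory cytokine IL-35, and with the p28 chain it forms IL-27; both act through receptor chains of the IL-12 and IL-6 families and the JAK and STAT proteins. Activated B cells make both chains of IL-35, and B cells that do so are counted among the regulatory B cells. A B cell that becomes a plasma cell gives up Pax5, Bach2 and Ebf1 and turns on Prdm1 and Xbp1, which build the secretory apparatus.

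Values are normalized counts (reads divided by a size factor of each library), and differences are EBi3KO tumor minus WT tumor in log2 of the normalized count plus 1, with limma's standard error (SE). A gene is called higher or lower where limma's p, adjusted by Benjamini-Hochberg over the 13011 genes tested, is below 0.05. Of these genes 7866 (60.5%) were called, 4151 (31.9%) higher and 3715 (28.6%) lower in EBi3KO tumor, with a median difference of -0.001. In all 7866 the libraries of one group lay above those of the other. Genes that were not called, such as Il12a and Stat3, lay apart too, so with 2 libraries a side this adds nothing to the calls. The difference was at least 2-fold in 1421 of the higher and 1011 of the lower genes, and at least 4-fold in 373 and 99. A count of list members below is to be read against these shares, since most genes moved.

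Several features of the libraries moved together with genotype in the tumor-bearing mice. Xist, the RNA that silences the inactive X chromosome, had 19758 and 26191 normalized counts in WT tumor and 18.3 and 14.7 in EBi3KO tumor, and the Y-linked Eif2s3y, Uty and Kdm5d had 0 reads in both WT tumor libraries against 505 to 2984 in EBi3KO tumor. The WT tumor libraries thus carried a female pattern and the EBi3KO tumor libraries a male one, so genotype, sex and title prefix cannot be told apart. With chromosomes X and Y left out, 4002 genes were higher and 3541 lower. The EBi3KO tumor libraries were unusually alike, with a chi-square per degree of freedom of 2.01 between their reads, against 13.1 to 20.3 within the other groups. Averaged as 1 sample they left 5659 genes called (43.5%), 3113 higher and 2546 lower, 5657 of them among the 7866. The difference also ran along transcript length, with a Spearman's rho of -0.499 across 12867 genes, which share their libraries and are not replicates. The median difference was 0.784 in the decile of shortest transcripts (median 996 bases) and -0.786 in that of the longest (8093 bases). The WT tumor libraries differed from each other along length as well (rho 0.353), the EBi3KO tumor libraries less so (-0.034). After a correction that fitted and subtracted, library by library, how values depend on the length and GC content of transcripts (the length and GC correction), 6154 of 12867 genes were called (47.8%), 3418 higher (26.6%) and 2736 lower (21.3%). Of the 7866 genes 5029 were also called then, 156 of them in the opposite direction. The part of length, of sex and of other cell types in the results below was not tested. Values after the correction are given for many lists and genes but not for all.

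**Figure D1:**
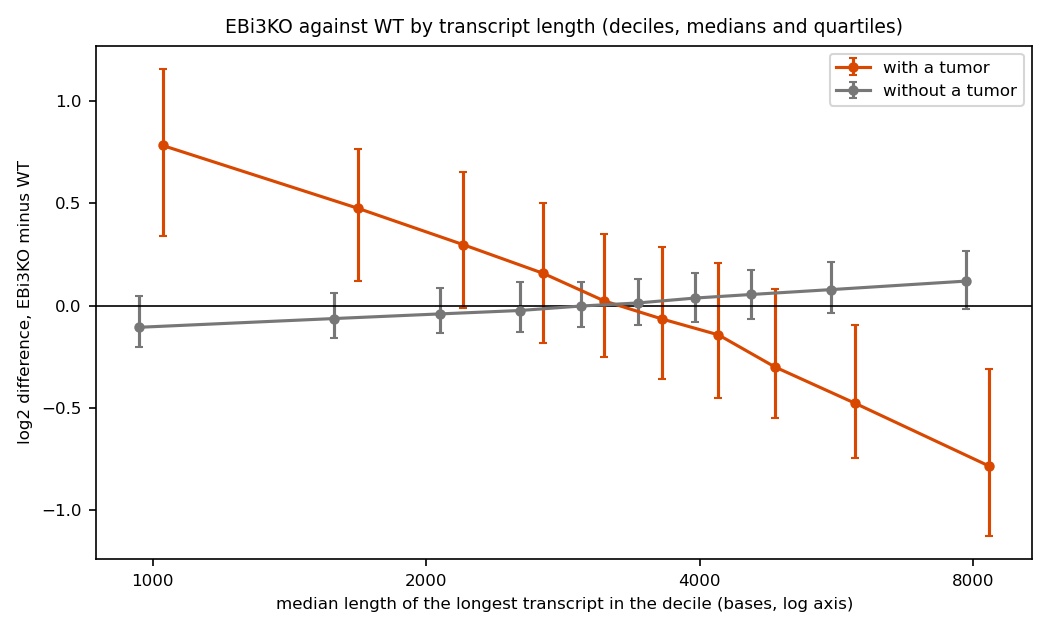
Log2 difference between EBi3KO and WT (y axis) in deciles of genes ordered by the length of their longest transcript (x axis, bases, log scale), with medians as points and quartiles as bars, for mice with a tumor (orange) and without (grey), set slightly apart sideways so that both can be read. With a tumor the median goes from 0.784 in the shortest decile to -0.786 in the longest, and without a tumor from -0.106 to 0.12.

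Markers of other cells were higher in EBi3KO tumor than in WT tumor. All 14 tested monocyte and macrophage markers were higher, by 1.73 to 3.17 (median 2.28), among them the complement gene C1qa with 708 and 561 normalized counts in WT tumor and 5659 and 5600 in EBi3KO tumor. So were 8 of 8 NK cell markers (median 1.68), 10 of 11 T cell markers (1.53), 8 of 10 granulocyte markers (2.03), 8 of 10 dendritic cell markers (0.90), 11 of 12 erythroid markers (1.91) and 7 of 8 platelet markers (1.49). Monocyte and macrophage markers took 0.0444% to 0.0498% of the reads in WT tumor and 0.228% to 0.23% in EBi3KO tumor, below the 0.338% to 0.415% of the libraries without a tumor. T cell markers took 0.00578% to 0.00607% in WT tumor and 0.00819% to 0.00858% in EBi3KO tumor, and NK cell markers 0.00318% to 0.00374% and 0.011% to 0.0114%. None of the listed markers of these types was at 0 in all 4 tumor libraries. Of 8 B cell markers 2 were higher and 5 lower (median -0.31), or 0 and 7 with the libraries' distributions made equal by quantile scaling (-1.04). Together they took 1.2% of the reads in each WT tumor library and 1.01% and 1.02% in EBi3KO tumor. Both lay above the 0.757% to 0.893% of the libraries without a tumor. Fewer cells of a type and less RNA per cell cannot be told apart in such bulk samples.

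**Figure D2:**
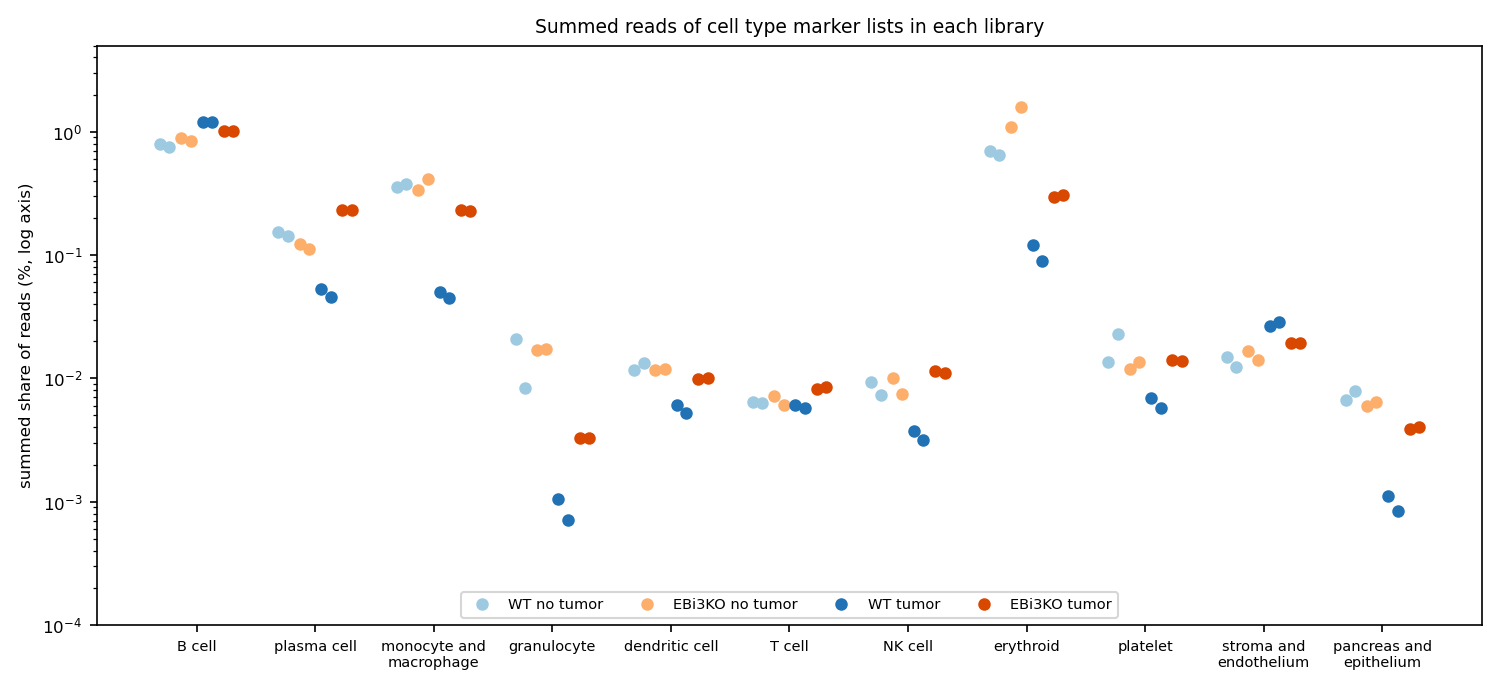
Summed share of reads (y axis, percent, log scale) of the marker lists of 11 cell types (x axis) in each of the 8 libraries, coloured by group. The EBi3KO tumor libraries lie above the WT tumor libraries in monocyte and macrophage markers (0.228% to 0.23% against 0.0444% to 0.0498%) and below them in B cell markers (1.01% and 1.02% against 1.2%).

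Ebi3 itself separated the groups. It lies on chromosome 17 (mm10, 55952640 to 55957022, plus strand). It had 200.9 and 163.6 normalized counts in WT tumor and 8.70 and 11.0 in EBi3KO tumor. With 1 added to each group mean, Ebi3 was 16.9-fold lower in EBi3KO tumor (log2 difference -4.08, SE 0.303, adjusted p = 2.43e-05 in limma). Both EBi3KO tumor libraries were at the level of the mice without a tumor, where Ebi3 averaged 9.96 ± 1.44 in WT and 12.1 ± 0.931 in EBi3KO (SD, n = 2 each). WT mice without a tumor thus had as little Ebi3 as EBi3KO mice, so a low level does not by itself show the deletion. The table gives 1 value per gene, so the part of the transcript that the remaining reads cover is not known.

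Of the partners and receptors of Ebi3, 10 genes with Ebi3 itself, 8 were tested; the p28 chain (Il27) and Il23a had a mean below 10 and were not. Il12a, the other chain of IL-35, had 459.8 and 512 normalized counts in WT tumor and 361 and 356 in EBi3KO tumor, without overlap but short of the threshold (-0.44, 95% interval -0.95 to 0.08, adjusted p = 0.124). Il12a was called lower in 4 of 23 alternatives, among them the length and GC correction (-0.89) and the fit of the 4 tumor libraries alone. Il12b, the p40 chain of IL-12 and IL-23, was the list member that was higher, at 2.38 and 4.72 in WT tumor and 23.5 and 27.5 in EBi3KO tumor (2.59, SE 0.389, adjusted p = 0.000586). It is a cytokine chain of macrophages and dendritic cells above all, whose markers were higher in the same libraries. Among receptor chains, Il6st (gp130), with 459 and 551 against 332 and 375, and Il6ra, with 599.5 and 658 against 458 and 419, were called lower (-0.51 and -0.52). Both turned sign and lost the call after the correction (0.23 and 0.16). The call of Il6ra also ended without any of the 4 tumor libraries, with the EBi3KO tumor pair averaged and without the trend in limma, and that of Il6st without WT tumor replicate 2 or EBi3KO tumor replicate 1. Il27ra (-0.37), Il12rb2 (-0.28) and Il12rb1 (-0.01) did not pass. Il27ra was called lower in 7 of 23 alternatives, among them the correction (-0.53) and the fit of the 4 tumor libraries alone. In all 1 of 8 tested chains and receptors was higher and 3 were lower (median -0.40).

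Downstream, 2 of 17 JAK and STAT pathway genes were higher and 5 lower (median -0.13), or 4 and 5 after the correction (-0.04). The kinases Jak1 (15953 and 16792 in WT tumor against 12013 and 11699 in EBi3KO tumor, -0.47), Jak3 (-0.34) and Tyk2 (-0.35) were lower, as was Stat2 (-0.65, adjusted p = 0.00136), the STAT of type I interferon signalling. Jak1 lost its call after the correction, where it stood at -0.15, and Jak3 and Tyk2 lost theirs when the EBi3KO tumor pair was averaged and without WT tumor replicate 1 or either library of that pair, and Tyk2 also without WT tumor replicate 2. Socs3, the feedback inhibitor that STAT3 induces, was higher, with 330 and 267 in WT tumor and 532 and 500.5 in EBi3KO tumor (0.80, SE 0.144, adjusted p = 0.00154). The EBi3KO tumor libraries were above all 6 others for Socs3, which ranged from 267 to 382. Stat3 differed by -0.08 (95% interval -0.24 to 0.08, adjusted p = 0.363), and was called higher after the correction (0.32, adjusted p = 0.00224).

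Of 17 genes of the plasma cell program 12 were higher in EBi3KO tumor and 2 lower (median 0.68), and 11 and 1 after the length and GC correction (median 0.45). The 2 lower were Slamf7 (-0.82) and Edem1 (-0.21). Igj, the J chain that links antibodies into polymers, had 3900 and 3145 normalized counts in WT tumor and 42735 and 42448 in EBi3KO tumor (3.60, SE 0.119, adjusted p = 8.69e-07). The mice without a tumor lay between, at 24528 to 28844 in WT and 16540 to 18319 in EBi3KO. Tnfrsf17, the plasma cell survival receptor BCMA, had 4.76 and 3.15 in WT tumor and 40.0 and 45.8 in EBi3KO tumor (3.16, SE 0.350, adjusted p = 0.000131). Here too the groups did not overlap, and the EBi3KO tumor libraries were the highest of the 8. Mzb1, a chaperone of antibody assembly, went from 4743 and 4050 in WT tumor to 9841 and 10076 in EBi3KO tumor (1.18). The oxidase Prdx4 (1.20), the translocon subunit Ssr4 (1.13) and the signal peptidase subunit Sec11c (0.69) were higher as well.

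Among the factors that direct plasma cell differentiation, Xbp1 had 2143 and 1910 in WT tumor and 3361 and 3452 in EBi3KO tumor (0.75, SE 0.0875, adjusted p = 0.000165). Prdm1, which commits cells to the plasma cell fate, had 119.9 and 124 against 167 and 163 (0.44, SE 0.158, adjusted p = 0.0395); its call ended without any of the 4 tumor libraries, with the EBi3KO tumor libraries averaged, with no filter on low genes, under quantile scaling and in DESeq2. Irf4 (6722 and 7202 against 6591 and 6742) differed by -0.06 (95% interval -0.47 to 0.34) and Sdc1, the surface proteoglycan of plasma cells, by -0.01. Pax5, which holds B cell identity, differed by -0.08 (95% interval -0.38 to 0.21, adjusted p = 0.59) and was called higher after the length and GC correction (0.55). Bcl6, the repressor of the germinal centre, had 2450 and 2452 in WT tumor and 1799 and 1820 in EBi3KO tumor (-0.44, SE 0.0757, adjusted p = 0.00123). Of 7 plasma cell markers, a list without Slamf7, 6 were higher and 0 lower. Together they took 0.046% to 0.0532% of the reads in WT tumor and 0.231% in each EBi3KO tumor library. Igj made up 42735 and 42448 of their 56867 and 56860 normalized counts in EBi3KO tumor. In WT tumor it made up 3900 and 3145 of 11569 and 9833.

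Among 20 genes of endoplasmic reticulum folding and the unfolded protein response 8 were higher and 4 lower (median 0.18). Those that were higher included folding factors, with Sdf2l1 at 346 and 282 against 712 and 735 (1.21), Manf (0.87) and the chaperone Hspa5, or BiP (12132 and 12080 against 15563 and 15616, 0.36, adjusted p = 0.00182). Ern1, which encodes the sensor IRE1 (172 and 218 against 95.7 and 88.0, -1.07), Eif2ak3, which encodes the sensor PERK (-0.61), and the degradation adaptor Sel1l (-0.65, or -0.12 and not past the threshold after the length and GC correction) were lower. The endoplasmic reticulum stress element, a control sequence of chaperone genes, is CCAAT and CCACG with 9 bases of any kind between them. It was searched on both strands in the 250 bases before RefSeq gene starts (GRCm38.p6, the build also called mm10). It occurred in 7 of the 18 list members with a promoter in the table (38.9%) and in 14 of 9639 tested genes (0.145%). Of the 7, 2 were higher and 5 did not pass, and of the 11 without a match 5 were higher, 3 lower and 3 did not pass. The promoters of Hspa5 (chr2:34771985-34772084, plus strand) and Creld2 (chr15:88819480-88819579, plus strand), a plasma cell program member picked for its match, show the element in capitals, in Creld2 on the opposite strand.
Hspa5: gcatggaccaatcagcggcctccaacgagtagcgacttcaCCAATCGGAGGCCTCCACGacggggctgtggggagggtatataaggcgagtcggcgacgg
Creld2: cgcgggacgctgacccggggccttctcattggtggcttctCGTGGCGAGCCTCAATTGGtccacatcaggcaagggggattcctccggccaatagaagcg
Creld2 had 496 and 482 normalized counts in WT tumor and 793 and 777 in EBi3KO tumor (0.68), and lost its call after the length and GC correction (0.08).

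Of 13 quiescence genes, which keep B cells naive, 9 were lower in EBi3KO tumor and 2 higher (median -0.41), with 5 lower and 2 higher after the length and GC correction (median -0.03). Bach2, the repressor of plasma cell differentiation, had 8141 and 9039 in WT tumor and 3146 and 3105 in EBi3KO tumor (-1.46, SE 0.0949, adjusted p = 1.42e-05), or -0.73 after the correction. In both groups it was above the mice without a tumor, at 1690 to 2127. Klf3 had 2322 and 2460 against 901 and 906 (-1.40), and Cxcr5, the receptor that leads B cells into follicles, 9051 and 8463 against 5971 and 5879 (-0.56). Foxo1 (-0.68) turned to 0.04 and Foxp1 (-0.69) to -0.03 after the correction, and neither was called then. Klf2, which governs exit from lymphoid tissue, was higher (5881 and 5208 against 9243 and 9246, 0.74). After the correction it stood at 0.12 and was not called.

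Of 17 B cell identity genes 9 were lower and 2 higher (median -0.24), 8 and 2 after the length and GC correction (-0.18) and 13 and 2 under quantile scaling (-0.74). Ikzf3 (Aiolos) had 13516 and 15988 in WT tumor and 4610 and 4528 in EBi3KO tumor (-1.69, SE 0.0997, adjusted p = 9.51e-06), and the EBi3KO tumor libraries were close to the 3487 to 4055 of mice without a tumor. Ebf1, a founding factor of the lineage, had 2816 and 3277 against 1379 and 1368 (-1.15), Fcer2a (CD23) 20930 and 21331 against 14813 and 14627 (-0.52), and the inhibitory receptor Cd22 30317 and 32946 against 21340 and 21678 (-0.56). The signalling chains of the antigen receptor, Cd79a (0.41) and Cd79b (0.45), were called higher, but under quantile scaling they were called lower (-0.43 and -0.39) and after the correction they were not called (-0.17 and -0.12). Of 21 genes of antigen receptor signalling 10 were lower and 3 higher (median -0.21; 11 and 1 after the correction), with the kinase Prkcb at 16295 and 18452 against 8311 and 8503 (-1.04, adjusted p = 6.08e-05) and the adaptor Pik3ap1 at 4542 and 4438 against 2491 and 2466 (-0.86).

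**Figure D3:**
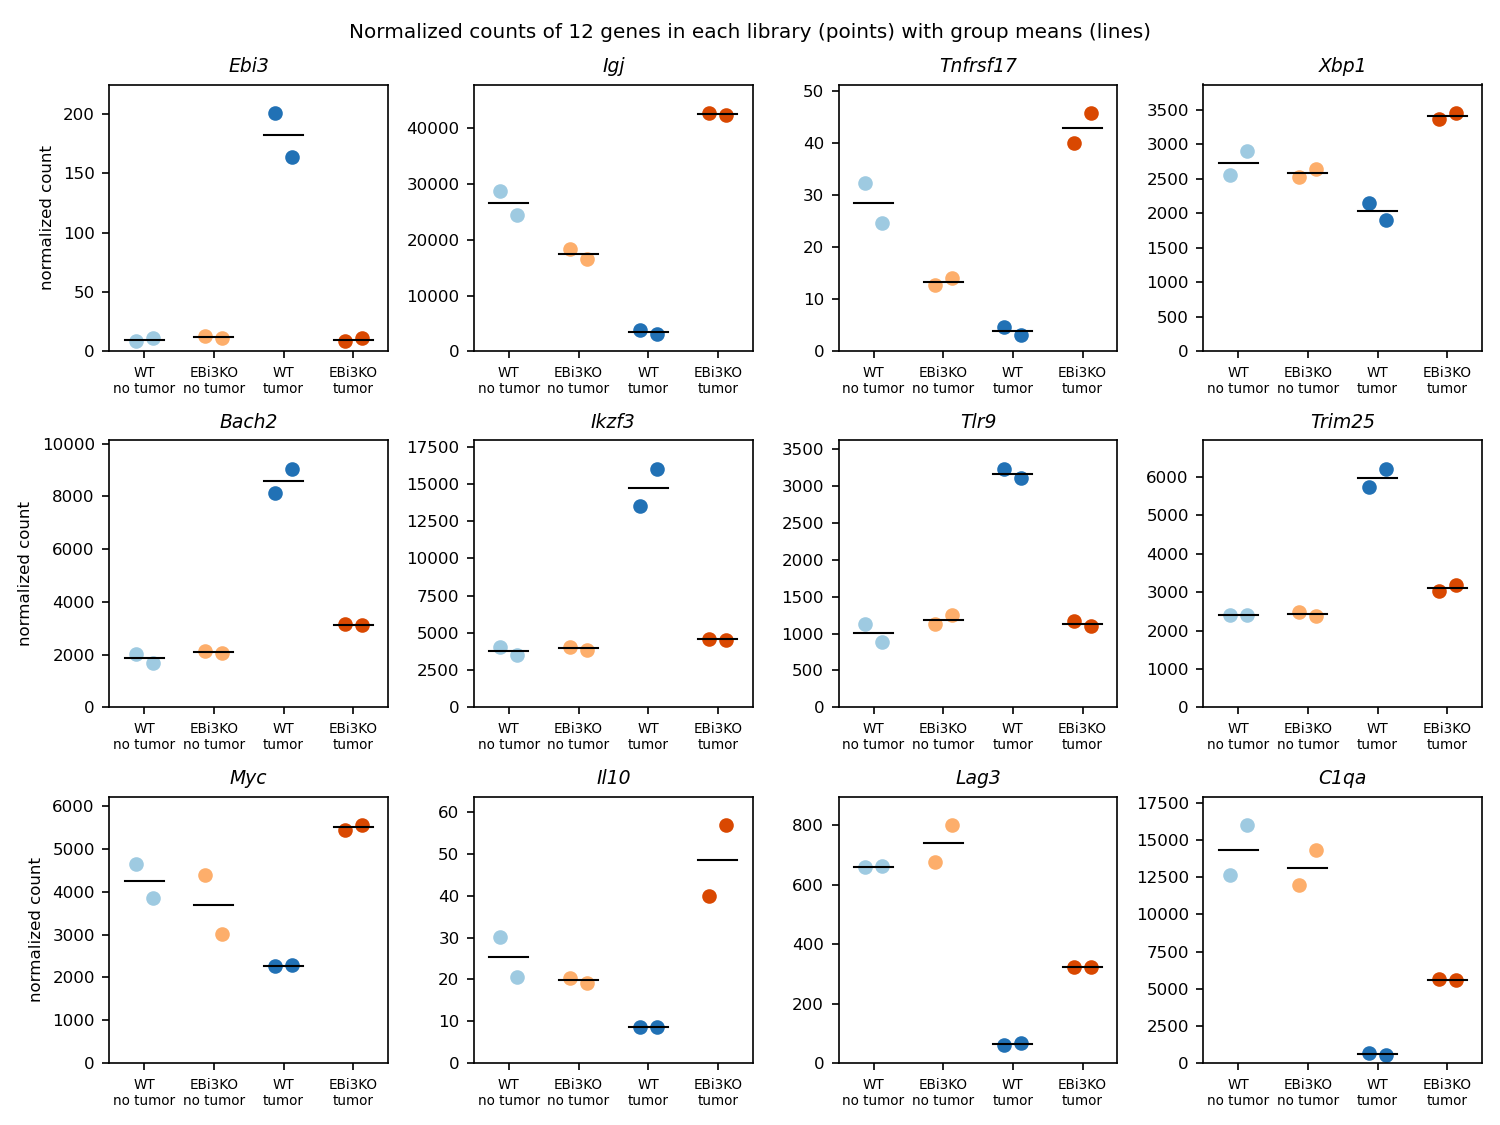
Normalized counts (y axes, linear from 0) of 12 genes in each library (points), by group (x axis), with group means as lines. Igj, Tnfrsf17 and Xbp1 are highest in EBi3KO tumor, Bach2, Ikzf3, Tlr9 and Trim25 are highest in WT tumor, and Lag3 and C1qa are lowest in WT tumor (61.1 and 68.4, 708 and 561).

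Receptors of homing and of innate sensing split. Itga4, the integrin chain that holds B cells in the marginal zone and at vessel walls, had 12659 and 15121 in WT tumor and 5066 and 5067 in EBi3KO tumor (-1.45, SE 0.146, adjusted p = 8.97e-05), and S1pr1, which guides cells out of lymphoid tissue, 9976 and 9175 against 6077 and 5908 (-0.68). The adhesion receptor Cd44 was higher (2464 and 2382 against 4300 and 4259, 0.82). In all 6 of 16 homing genes were higher and 6 lower (median -0.14), or 4 and 7 after the length and GC correction (-0.06). Of 15 Toll-like receptors and their partners 5 were higher and 5 lower (-0.16), or 2 and 5 after the correction (-0.11). Tlr9, the sensor of unmethylated DNA, had 3229 and 3105 against 1168 and 1101 (-1.48, SE 0.117, adjusted p = 3.17e-05), Tlr7, the sensor of RNA, was at -0.61, and Ly86, the partner of the receptor Cd180, at 0.81. In Tlr9 the EBi3KO tumor libraries lay within the range of mice without a tumor (886 to 1245).

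Immediate early and activation genes were higher in EBi3KO tumor, 16 of 19, with 1 lower (median 0.96; 10 and 1 after the length and GC correction, median 0.65). Myc had 2257 and 2289 in WT tumor and 5444 and 5550 in EBi3KO tumor (1.27, SE 0.158, adjusted p = 0.000222). Zfp36, which destabilizes cytokine mRNAs, had 8977 and 8271 against 20182 and 20429 (1.24, adjusted p = 1.22e-05), and Egr2, a target of the antigen receptor, 197 and 212 against 489 and 507 (1.28). For Zfp36 the libraries without a tumor ranged from 19511 to 22687, and the EBi3KO tumor libraries lay within that range. Such genes also respond to cell handling, for which the labels give no measure, and its part was not tested.

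In the co-stimulation and checkpoint list, which holds ligands and receptors of both kinds, Cd86 had 1021 and 1052 in WT tumor and 1968 and 1932 in EBi3KO tumor (0.91, adjusted p = 0.000559), and Cd40 was at 0.50 and Cd80 at 0.74, the latter not past the threshold with the EBi3KO tumor libraries averaged, without WT tumor replicate 1 or without EBi3KO tumor replicate 2. Btla, an inhibitory receptor, had 20320 and 22217 against 10801 and 10740 (-0.98), and its partner Tnfrsf14 (-0.91) and the checkpoint ligand Cd274 (PD-L1, 2077 and 2201 against 1387 and 1567, -0.54, or -0.45 and not called without EBi3KO tumor replicate 1) were lower. Icosl, another co-stimulatory ligand, was called lower as well (-0.36), a call that ended in 8 of 23 alternatives, among them each of the 4 tumor libraries left out. Over the list of 10, 3 were higher and 5 lower (median -0.19). Of 14 genes of NF-kB 6 were higher and 3 lower (0.09), or 2 and 5 after the length and GC correction (-0.06), with the subunit Rel at 2716 and 3369 against 951 and 984 (-1.65, SE 0.157, adjusted p = 6.97e-05) and the target Traf1 at 0.78. Of 12 survival genes 4 were higher and 5 lower (-0.02), or 3 and 1 after the correction (-0.15). The NF-kB targets Bcl2a1b (1.37) and Bcl2a1d (1.43), close copies between which reads may be split, were higher, while Bcl2 (-0.56) turned to 0.08 and was not called after the length and GC correction.

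Of 19 genes linked to regulatory B cells 10 were higher and 3 lower (median 0.38, or 7 and 5 after the correction). The 3 lower were Il2ra (-1.23), Cd274 (-0.54) and Pdcd1lg2 (-0.45). Il10, the main cytokine of these cells, had 8.73 and 8.65 normalized counts in WT tumor and 40.0 and 56.8 in EBi3KO tumor (2.33, SE 0.330, adjusted p = 0.000435). Lag3 had 61.1 and 68.4 against 324 and 323 (2.31, SE 0.119, adjusted p = 5.75e-06), and Gzmb, a cytotoxic protease, 28.6 and 29.9 against 127 and 130 (2.10, adjusted p = 0.000117). Il10 was highest of all groups in EBi3KO tumor, whereas Lag3 was at 661 to 801 in mice without a tumor. Il10, Lag3 and Gzmb are also made by T cells, NK cells or macrophages, whose markers were higher in the same libraries (medians 1.53, 1.68 and 2.28). The part of those cells in these differences was not tested. In the marginal zone and Notch list (6 of 12 higher, 4 lower, median 0.10) Notch2 was lower (9653 and 10325 against 5418 and 5288, -0.90, or -0.19 after the correction) while the Notch targets Dtx1 (3212 and 2709 against 4665 and 4731, 0.67) and Asb2 (376 and 329 against 1132 and 1133, 1.69) were higher. Of 12 germinal centre genes 2 were higher and 3 lower (0.05), or 1 and 3 after the correction (-0.28), with Mybl1 at 245 and 316 against 71.3 and 58.7 (-2.09). Of 8 B-1 cell genes 3 were higher and 2 lower (0.14), or 1 and 0 after the correction (0.04).

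Of 24 type I interferon genes 15 were lower in EBi3KO tumor and 1 higher (median -0.58), and after the length and GC correction 17 were lower and 2 higher at the same median. Trim25, the ligase that activates the RNA sensor RIG-I, had 5750 and 6209 in WT tumor and 3023 and 3185 in EBi3KO tumor (-0.94, SE 0.0709, adjusted p = 2.55e-05). Ddx58, which encodes RIG-I, had 4086 and 4380 against 2269 and 2264 (-0.90), and Ifit2, which blocks translation of viral RNA, 908 and 853 against 400.1 and 446 (-1.06). For Trim25, Ddx58 and Ifit2 the libraries without a tumor, at 2384 to 2489, 1696 to 2030 and 372 to 522, were closer to EBi3KO tumor than to WT tumor. Bst2, a tether of budding virions and the list's exception, had 595 and 490.0 in WT tumor and 1026 and 1061 in EBi3KO tumor (0.95, or 0.15 and not called after the correction).

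The interferon-stimulated response element, a control sequence of genes that type I interferon induces, was searched as a pair of GAAA with 2 bases of any kind between them, on both strands in the same 250 bases. It occurred in 8 of the 17 type I interferon genes with a promoter in the table (47.1%) and in 327 of 9639 tested genes (3.39%). Of the 8, 5 were lower, 1 was higher and 2 did not pass, and of the 9 without a match 6 were lower and 3 did not pass. The promoters of Oas3 (chr5:120777680-120777779, minus strand) and Stat2 (chr10:128270248-128270347, plus strand), which were lower, and of Bst2 (chr8:71537548-71537647, minus strand), which was higher, are shown to set the element, in capitals, in the 2 directions side by side. Bst2 holds 2 overlapping matches, and the match in Stat2 is on the opposite strand.
Oas3: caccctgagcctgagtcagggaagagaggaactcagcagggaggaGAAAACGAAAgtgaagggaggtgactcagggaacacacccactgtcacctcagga
Stat2: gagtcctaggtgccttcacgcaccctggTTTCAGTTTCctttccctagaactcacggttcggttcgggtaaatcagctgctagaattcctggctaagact
Bst2: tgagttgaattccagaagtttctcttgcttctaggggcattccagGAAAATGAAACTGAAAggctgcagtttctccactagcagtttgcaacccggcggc
Oas3, which makes the activator of RNase L, had 514 and 506 normalized counts in WT tumor and 323 and 292 in EBi3KO tumor (-0.73, SE 0.107, adjusted p = 0.000525), and Stat2 had 3232 and 3482 against 2155 and 2120. A match is a run of letters in the window and not a bound site.

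Of 17 interferon gamma genes 5 were higher and 6 lower (median -0.06), or 4 and 8 after the length and GC correction (-0.19). The GTPases Gbp4 (2379 and 2779 against 1367 and 1426, -0.88) and Irgm1 (-0.75) were lower, and the chemokine Cxcl9 (65.9 and 73.1 against 184 and 188, 1.41) and the GTPase Iigp1 (81.0 and 57.4 against 206 and 212, 1.60) were higher. In antigen presentation, Ciita, the master regulator of MHC class II, had 8452 and 9270 in WT tumor and 5211 and 5178 in EBi3KO tumor (-0.77, SE 0.0991, adjusted p = 0.000265), while 10 of 14 class II genes were higher and 2 lower (median 0.42). H2-DMa, which loads peptide, had 8857 and 7820 against 15258 and 15139 (0.87). That count rested on scaling and length, with 4 higher and 3 lower under quantile scaling (median -0.03) and 3 higher and 4 lower after the length and GC correction (-0.04). H2-Ab1 (0.81) and H2-Eb1 (0.75) stood at -0.06 and -0.09 under quantile scaling. Of 17 class I and peptide loading genes 13 were higher and 3 lower (0.42), or 8 and 2 after the correction (0.17), among them the immunoproteasome subunits Psmb8 (5669 and 4878 against 9639 and 9711, 0.88), Psmb9 (0.93) and Psmb10 (0.98).

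In the machinery of protein synthesis, of 84 cytosolic ribosomal protein genes 83 were higher and 0 lower (median 1.13), with Rps14 at 26429 and 21218 in WT tumor and 72520 and 74028 in EBi3KO tumor (1.63, SE 0.113, adjusted p = 1.87e-05). The list took 9% and 10.5% of the reads in WT tumor, 18.4% and 18.5% in EBi3KO tumor and 21.8% to 24.5% without a tumor. Its median was 0.55 under quantile scaling, where 71 were higher and 1 lower, and 0.52 after the length and GC correction, where 73 were higher and 0 lower. Of 89 oxidative phosphorylation genes 80 were higher and 0 lower (median 1.0, or 0.37 with 61 and 3 after the correction), with Atp5e at 2333 and 1844 against 6522 and 6663 (1.67). Mitochondrial ribosomal proteins (63 of 73 higher, 0 lower, median 0.67, or 40 and 3 with 0.28 after the correction) and proteasome subunits (35 of 43 higher, 2 lower, median 0.68, or 27 and 2 with 0.31, with Psma7 at 1.03) were higher too. Most of these genes have short transcripts, for which the comparison as a whole gave higher values.

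Of 15 glycolysis genes 10 were higher and 1 lower (median 0.44; 10 and 0 after the correction, median 0.25), with Ldha at 5070 and 4391 against 7940 and 7933 (0.75) and Aldoa at 0.83. Of 22 cell cycle genes 11 were higher and 2 lower (median 0.27; 10 and 2 after the correction, median 0.23). Rrm2, the ribonucleotide reductase subunit, had 522 and 567 in WT tumor and 952 and 967 in EBi3KO tumor (0.82), far under the 4921 to 6022 of mice without a tumor, and Pcna was at 0.64. Mki67, by contrast, was lower (1282 and 1523 against 551 and 581, -1.30, or -0.47 after the correction). Of 290 numbered zinc finger genes 179 were lower and 16 higher (median -0.52; 134 and 16 after the correction, median -0.37), with Zfp871 at 5887 and 6820 against 2101 and 2088 (-1.60). Among 10 glucocorticoid response genes 5 were higher and 2 lower (0.40). The metallothioneins Mt1 (25.4 and 19.7 against 163 and 159, 2.79) and Mt2 (3.97 and 3.15 against 57.4 and 51.3, 3.61) rose most in this list, and Tsc22d3 (GILZ) had 17959 and 17855 against 32320 and 32516 (0.86). Nr3c1, the receptor itself, was lower (-0.72, or -0.12 and not called after the correction).

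**Figure D4:**
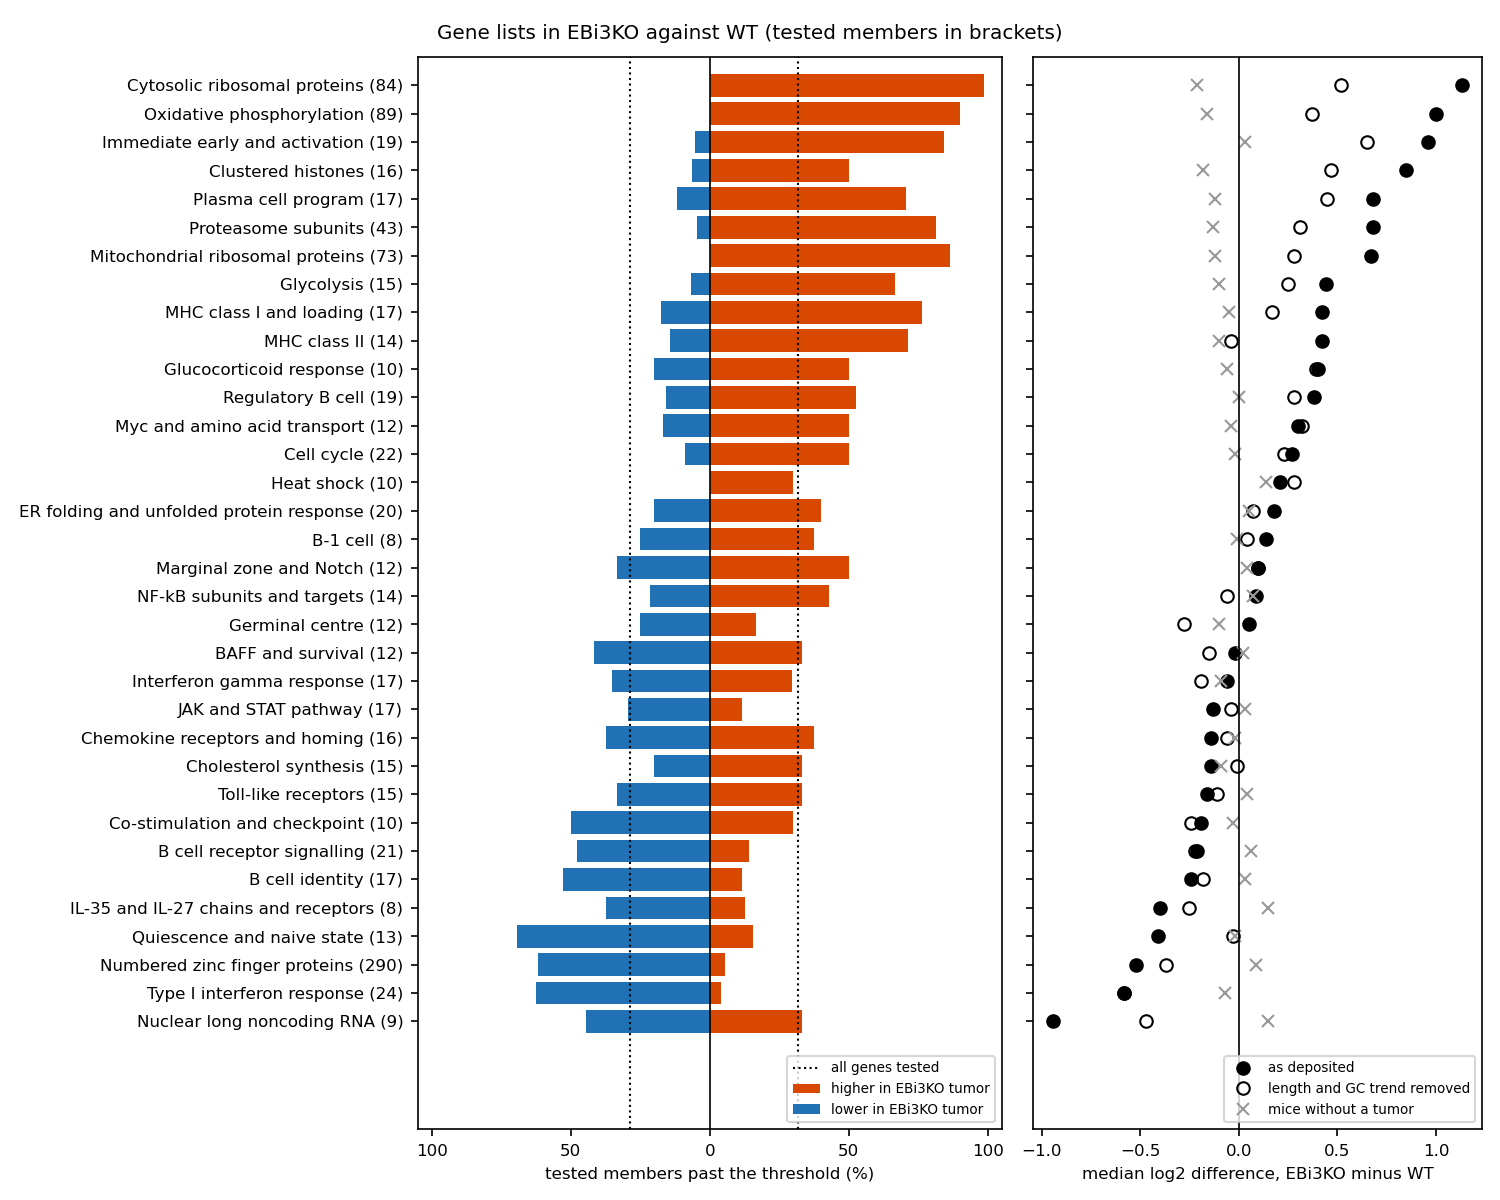
Left, share of the tested members of each gene list (y axis) called higher (orange, to the right) or lower (blue, to the left) in EBi3KO tumor than in WT tumor (x axis, percent), with dotted lines at 31.9% and 28.6% for all genes. Right, median log2 difference of each list as deposited (filled), after the length and GC correction (open) and in mice without a tumor (crosses); cytosolic ribosomal proteins reach 1.13 and type I interferon genes -0.58.

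Among the largest falls beside Xist and Ebi3 were Vasn, a trap for TGF-beta (230.3 and 386 in WT tumor, 10.4 and 16.5 in EBi3KO tumor, -4.40, SE 0.372, adjusted p = 4.43e-05), the potassium channel Kcna3 (435 and 536 against 55.7 and 57.8, -3.07) and Cbl, the ubiquitin ligase that dampens antigen receptor signalling (2621 and 3108 against 364 and 385, -2.93, SE 0.187, adjusted p = 1.37e-05). For Vasn, Kcna3 and Cbl the EBi3KO tumor libraries were within or near the range of mice without a tumor, at 6.71 to 21.7, 26.1 to 53.7 and 243 to 381. The zinc finger genes Hivep3 (364 and 420.0 against 50.5 and 48.6, -2.96), Zbed6 (-3.04) and Zfp369 (-2.77) and the ligase Trim56 (1299 and 1490 against 242 and 238, -2.53) were among them as well.

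Among the largest rises were basophil and granulocyte genes. Mcpt8, a protease of basophils, had 6.35 and 3.15 in WT tumor and 122 and 149 in EBi3KO tumor (4.62, SE 0.301, adjusted p = 1.42e-05), Prg2, the major basic protein of eosinophils, 17.5 and 16.5 against 364 and 346 (4.31), and Prss34, another protease of basophils, 11.1 and 5.50 against 158 and 149 (4.12). The myeloperoxidase Mpo (3.39), the pyruvate kinase of red cells and liver Pklr (3.60), the protease inhibitor Slpi (294 and 226 against 2954 and 3083, 3.54), and the chemokine Ccl3 (29.4 and 22.8 against 253 and 280.5, 3.31) were also among them. Mcpt8 and Prg2 stood at 103 to 133 and 174 to 404 without a tumor, so that EBi3KO tumor was within or near that range and WT tumor below it.

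Without a tumor 0 of 13011 genes were called between EBi3KO and WT (0%) in limma, with 1049 at an unadjusted p below 0.05 (8.06%). edgeR also called 0, with 1016 below the unadjusted threshold, and DESeq2 called 21, 11 higher and 10 lower. Of those 21, 17 were also called by DESeq2 with a tumor, 5 of them in the same direction. With 0 genes called, no list above could have a called member without a tumor. Limma's estimate of spread drew on all 8 libraries, while the 2 genotype comparisons share no library. The difference between them, tested as the interaction of genotype and tumor, passed in 6881 genes (52.9%), among them Ebi3 (-4.34, adjusted p = 0.000209), Igj (4.21), Bach2 (-1.63), Ikzf3 (-1.76), Trim25 (-0.96), Myc (1.50) and Il10 (2.65). The interaction holds the WT tumor libraries too, and with them the difference in sex and title prefix.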

How the data were processed

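RNA of splenic naive B cells was sequenced in 8 libraries. Per the submitters' processing notes, Salmon, DESeq2 and mm10 were used, and which versions is not given in the sources used here. All deposited signal values are DESeq2 normalized counts, 1 per gene symbol and library, written by the authors. Divided by the step of each library they were whole reads in 100% of entries (tolerance 0.01), which gave the depth. Of 23302 entries 5065 were at 0 throughout, and the 13011 with a mean of at least 10 were tested. Log2 values with 1 added entered limma 3.58.1 (R 4.3.3), with 1 mean for each of the 4 groups and a trended prior (4 residual and 4.64 prior degrees of freedom). Tests are two-sided, with Benjamini-Hochberg adjustment over all tested genes at 0.05.

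The members compared and the gene lists were chosen with earlier results of these data known. Named are Stat3, Xbp1, Irf4, Prdm1, Pax5, Bcl6, Il12a and Ebi3, genes among the 15 largest called rises and 15 largest falls (higher mean at least 50, groups apart, gene models and receptor segments passed over), the 6 members of a list with the smallest p, and any member of a list of at most 12. Creld2, Slamf7, Edem1 and Il2ra lie outside this rule. Some genes that meet it are not reported here.

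The settings varied in turn were the pseudocount (5 or 0.1), the filter (none, or a mean of 50), scaling (quantile, upper-quartile or TMM), a fit of the 4 tumor libraries alone, no trend, robust moderation, the count models DESeq2 1.42.0 and edgeR 4.0.16 with recovered reads, removal of each library's natural spline trends (5 degrees of freedom) on length and GC content (GENCODE M21, 98.9% of genes matched), chromosomes X and Y left out, and each library left out. Averaging the EBi3KO tumor libraries was added after seeing the data. On simulated data for the tumor comparison (200 of 13011 genes changed) limma recovered 77.1% of 2-fold and 96.7% of 4-fold changes, and 8.02% of its 187 calls were false. The simulation changed far fewer genes than were called in the data, gave all groups the same spread and held no length trend. Its rates therefore do not carry over to the calls in the data. Promoter sequences are RefSeq's on GRCm38.p6, which matched 9639 of the tested genes by symbol.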

Additional observations from a re-analysis of the deposited data

Results flagged for a closer look

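The genotype effect differed between mice with and without a tumor in 6881 of 13011 genes by limma's interaction test. Among the genes named for it, the log2 interaction was -4.34 for Ebi3 (tumor -4.08, nontumor 0.26), 4.21 for Igj (3.60 and -0.61), -1.63 for Bach2 (-1.46 and 0.18), -1.76 for Ikzf3 (-1.69 and 0.08), -0.96 for Trim25 (-0.94 and 0.01), 1.50 for Myc (1.27 and -0.22) and 2.65 for Il10 (2.33 and -0.32). The adjusted p of these interactions was 0.00201 for Il10 and lower for the others. The WT tumor libraries differ from the others in sex and title prefix, which the interaction carries and which cannot be told apart from it.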

How the results depend on the processing

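Slamf7, Edem1, Il2ra and Pdcd1lg2 are left out of the counts that follow. Of the other genes named in the text and called, 17 lost the call and 8 turned sign in at least 1 alternative, some of them both. The remaining 101 kept call and direction under every alternative that tested them, 23 for most and 22 for 12 genes on chromosome X or Y or with a mean below 50. The alternatives cover scaling, filter, pseudocount, tool, length and GC content, sex chromosomes and each library left out. The length and GC correction turned Pax5 to 0.55, Stat3 to 0.32, Il6st to 0.23, Il6ra to 0.16, Cd79a to -0.17, Cd79b to -0.12, Foxo1 to 0.04 and Bcl2 to 0.08. Quantile scaling turned Cd79a to -0.43, Cd79b to -0.39, H2-Ab1 to -0.06 and H2-Eb1 to -0.09. The cause was not tested. With each library left out, genes called higher in EBi3KO tumor numbered 3114 to 4308 and genes called lower 2408 to 4027, the fewest lower without WT tumor replicate 2. The interaction then held 2178 to 3735 genes called lower, again fewest without that library. The count without a tumor ran from 0 to 5 with a library left out and was 21 in DESeq2. Genes called the same way with and without a tumor numbered 0 in limma, 0 to 1 with a library left out and 5 in DESeq2. Under upper-quartile scaling, which moved the median difference to 0.06, 4522 genes were higher and 3330 lower, and with the 4 tumor libraries alone 4792 and 4821. No paired analysis of genotype was possible because the groups of each genotype comparison share no title number. The WT groups with and without a tumor share title numbers but differ in sex pattern and title prefix. Each side held 2 libraries, so spread between animals could not be measured apart from that between libraries, and a low gene such as Tnfrsf17 rests on a handful of reads in WT tumor.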

Other observations

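Among 10 heat shock genes 3 were higher in EBi3KO tumor and 0 lower (median 0.21). The inducible chaperone Hspa1b had 54.0 and 53.5 normalized counts in WT tumor and 249.6 and 275.9 in EBi3KO tumor (2.27, SE 0.681, adjusted p = 0.0184), against 8859 to 59338 without a tumor. That call ended without any of the 4 tumor libraries, with the EBi3KO tumor pair averaged, without the trend or with robust moderation in limma, and in edgeR. Hspe1, a mitochondrial chaperonin, had 2571 and 2270 against 5018 and 4967 (1.05). Of 16 clustered histone genes 8 were higher and 1 lower (median 0.85), or 4 and 2 after the length and GC correction, with the linker histone Hist1h1c at 329.5 and 250.9 against 1100 and 1137 (1.96, adjusted p = 1.97e-05). Of 9 nuclear long noncoding RNAs 3 were higher and 4 lower (median -0.94), or 2 and 3 after the length and GC correction (-0.47). Kcnq1ot1, which silences an imprinted cluster, had 8634 and 11446 against 2821 and 2763 (-1.83, or -0.62 after the correction), and without a tumor it ranged from 941 to 1660.

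Of 12 genes of Myc and amino acid transport 6 were higher and 2 lower (median 0.30). The glutamine transporter Slc38a5 had 6.35 and 3.15 against 43.5 and 44.9 (3.03, adjusted p = 4.42e-05), with 586 to 764 in mice without a tumor. Cholesterol synthesis was split, with 5 of 15 genes higher and 3 lower (median -0.14). The kinase Mvk had 129 and 134 against 233 and 210 (0.74). Of 4 pancreas and epithelium markers 3 were higher and 0 lower, led by the elastase Cela1 (88.9 and 64.5 against 654 and 664.5, 3.11, adjusted p = 5.46e-06), which had 1339 to 1952 without a tumor. Of 7 stroma and endothelium markers 0 were higher and 1 lower (median -0.04).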
